A study of Mus musculus with 7 samples.

Results

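The enzymes that turn cholesterol into bile acids in hepatocytes are encoded by Cyp7a1, Cyp8b1, Cyp27a1, Cyp7b1, Hsd3b7, Akr1d1, Amacr, Acox2 and Baat. HNF4a binding at these 9 genes was read from chromatin immunoprecipitation with sequencing (ChIP-seq) of mouse liver, by taking every region that the deposited table assigns to 1 of them, at any distance and with any annotation. This gave 63 of 39704 regions, on 9 of 13644 genes. The study compared 3 Wildtype (WT) libraries with 3 libraries of genotype AMPKCA, in which AMP-activated protein kinase (AMPK) is constitutively active, each named by its own animal code. All mice, WT included, ate a High Fat Diet containing doxycycline, over 14 days. Each batch, numbered 1 to 3 in the labels, paired a WT library with an AMPKCA one, and replicate numbers here are batch numbers. The labels used here give no strain, age, sex or driver of the AMPKCA allele.

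Bile acids are made from cholesterol by a classic route, which opens with hydroxylation of the sterol ring by CYP7A1, and by an alternative route, which opens with oxidation of the side chain by CYP27A1. Both routes share the enzymes that reshape the sterol nucleus, shorten the side chain in peroxisomes and couple the product to taurine or glycine. HNF4a, a nuclear receptor of hepatocytes, binds DNA as a homodimer at direct repeats of a receptor half-site and is a known activator of several of these genes in mice and humans. The design compares its binding between WT liver and liver of the genotype with constitutively active AMPK, an energy-sensing kinase. AMPK activity itself was not measured in these libraries.

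Promoter sequences covered by HNF4a regions are given first for the 3 genes whose RefSeq window (250 bases before to 50 bases after the start, GRCm38.p6) lay wholly inside an HNF4a region and whose upstream bases overlap no RefSeq gene. Capitals mark CAAAGNNCA, a loose form of the HNF4a core motif, or the 5-base core CAAAG, on either strand, and all 3 sequences run 5′ to 3′ in the direction of the gene up to the base before the start.
Cyp8b1, chr9:121916306-121916555, minus strand: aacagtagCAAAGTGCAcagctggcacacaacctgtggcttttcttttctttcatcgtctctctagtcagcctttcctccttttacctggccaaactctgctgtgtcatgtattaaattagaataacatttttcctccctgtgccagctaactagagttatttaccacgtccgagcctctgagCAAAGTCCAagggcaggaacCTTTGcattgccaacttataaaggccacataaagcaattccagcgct
Hsd3b7, chr7:127800359-127800608, plus strand: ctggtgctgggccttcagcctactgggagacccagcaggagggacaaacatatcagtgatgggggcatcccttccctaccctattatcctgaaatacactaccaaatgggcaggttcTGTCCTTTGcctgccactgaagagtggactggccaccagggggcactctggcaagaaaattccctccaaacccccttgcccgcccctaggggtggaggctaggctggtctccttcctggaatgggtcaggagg
Acox2, chr14:8259020-8259269, minus strand: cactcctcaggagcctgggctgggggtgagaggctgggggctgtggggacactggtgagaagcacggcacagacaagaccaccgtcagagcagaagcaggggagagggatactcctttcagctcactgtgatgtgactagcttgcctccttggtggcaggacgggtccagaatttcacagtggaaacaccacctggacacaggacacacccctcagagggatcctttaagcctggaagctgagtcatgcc
The Cyp8b1 window held the full motif CAAAGTCCA at bases -67 to -59 from the start (chr9:121916364-121916372), a sequence present in 0.475% of 32851 RefSeq windows and in 0.767% of the 8606 windows that an HNF4a region of the table overlaps. The looser CAAAGNNCA, which also matches the full motif, was found again in Cyp8b1 at -242 to -234 and on the other strand in Hsd3b7 at -133 to -125. That letter pattern is common, at 6.36% of all windows and 6.15% of those with a region. The Acox2 bases shown held none of the motifs. RefSeq's table lists a second Acox2 start, whose window is not shown and held CAAAG at -148 to -144 and at -75 to -71 on the other strand. Neither CAAAGGTCA nor TCAAGGTCA, the latter a site of the receptor NR5A2, was found in any window of the 5 genes that RefSeq's table covers. CAAAG alone, searched after the sequences had been seen, occurs in 53.9% of windows. Its share was 45.8% in windows with a region and 56.8% in those without. It was also found in the windows of Cyp27a1 and, at -203 to -199 on the other strand, Akr1d1. Motif matches describe letters only. No window was listed for Cyp7a1, Cyp7b1, Baat and Amacr. In Cyp27a1 2 regions covered 122 of the 300 bases of the window, and the Akr1d1 window was covered by no region.

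Libraries held 536027 to 1622087 reads in regions, and values are normalized reads, of which 1 unit stands for 0.556 to 1.499 sequenced reads. In whole liver, a lower value can come from fewer cells bound or from less binding per cell, which cannot be told apart. All 7 hepatocyte marker genes checked (among them Alb, Ttr and Cps1) had regions, 60 in all, against 10 regions for 13 marker genes of other liver cells, of which 7 had none. Of the 60 hepatocyte marker regions 3 passed the limma test with the batch as a block, all at Alb, the albumin gene. Over all regions 0.0579% passed. Alb was picked out for this result, whose cause was not tested. Its strongest such region, 10.6 kb upstream, had 3.34, 27.0 and 19.8 normalized reads in WT and 71.6, 102.8 and 82.0 in AMPKCA. The limma adjusted p there was 6.62e-11 with the block and 0.664 without it. The promoter share of reads was 19.4% in WT replicate 1 and 11.7% to 14.2% in the other 5 libraries. The members' regions took 0.116% of the summed signal in WT replicate 1, 0.209% in WT replicate 2, 0.169% in WT replicate 3, and 0.155%, 0.199% and 0.176% in AMPKCA replicates 1, 2 and 3.

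Each of these genes had several HNF4a regions. The members had 3 to 14 regions each, with a median of 7, where the median gene of the table had 2. Other liver genes looked at here were similar, among those with regions. The median was 8 for the hepatocyte markers, 6 for regulators of bile acid synthesis and 5 for further synthesis genes. Akr1d1 had the most at 14 regions, Cyp8b1, Cyp27a1, Cyp7b1 and Baat had 7 each, Cyp7a1, Amacr and Acox2 had 6 each and Hsd3b7 had 3. By the table's annotation 29 of the 63 regions were intergenic (46.0%, against 31.3% of all regions), 21 intronic, 6 exonic, 5 at promoters and 2 at gene ends. Against RefSeq gene bodies, 30 overlapped the assigned gene, 15 lay upstream and 18 downstream of it. Another protein-coding gene was overlapped by 5 regions. Distances to the start site ran from 74 bp at Amacr to 140.6 kb at Akr1d1, and 11 regions lay within 1 kb (17.5%, against 23.2% of all regions).

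**Figure D1:**
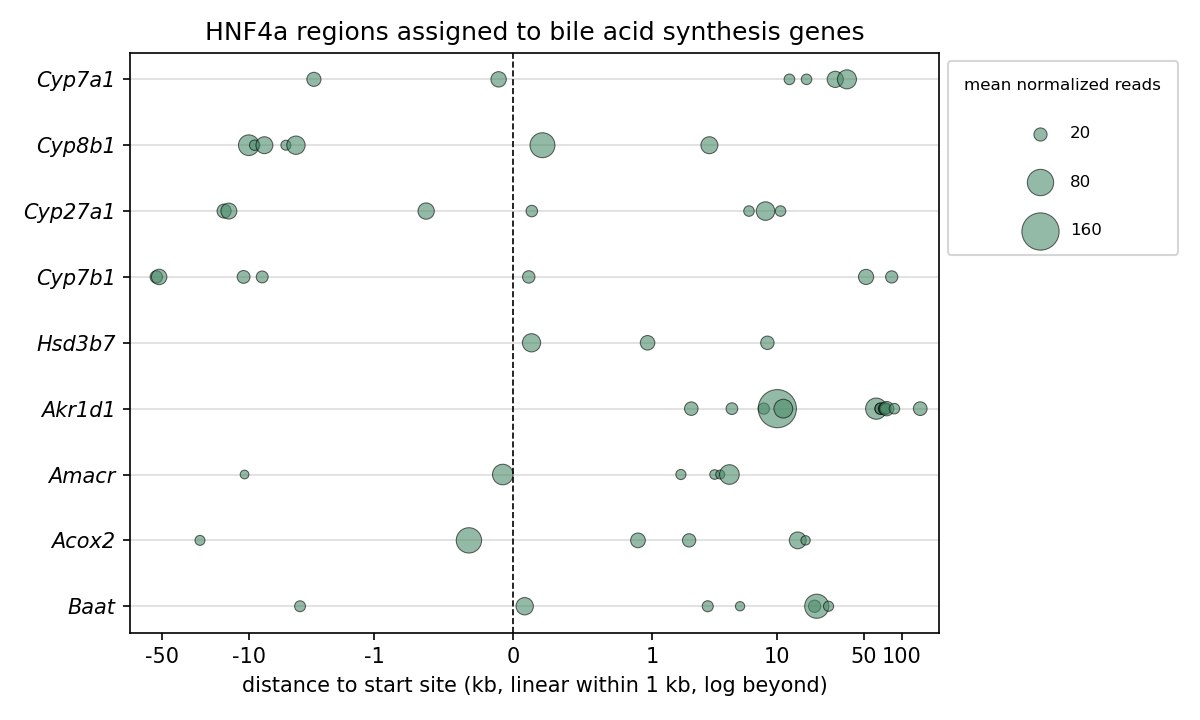
Position of each of the 63 HNF4a regions by its distance in kb to the start site of the assigned gene (x axis, linear within 1 kb and logarithmic beyond, upstream to the left), with the area of each circle proportional to the mean normalized reads of the 6 libraries. Akr1d1 has its largest circle 10.1 kb inside the gene and none at the start, while Acox2, Amacr, Cyp8b1 and Hsd3b7 have theirs within 1 kb of the start.

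Signal strength covered most of the range of the table. The median member region had a mean of 20.4 normalized reads, against 17.4 over all regions, and 5 of the 63 were in the top 10% of all regions. These were the intron 3 region of Akr1d1, the promoter region of Acox2, the exon region of Cyp8b1, a region downstream of Baat and a region 62.5 kb downstream of the Akr1d1 start. The strongest region of each gene, here and below the one with the highest mean normalized reads, was also divided by its length. In normalized reads per kb (mean ± SD over 6 libraries), these regions ranked Akr1d1 first at 165 ± 62.7 and Baat next at 140 ± 47.7. Cyp7a1 had 75.9 ± 33.4, Acox2 70.1 ± 7.61, Amacr 50.1 ± 16.9 and Cyp8b1 49.0 ± 8.36. Hsd3b7 had 45.6 ± 14.2, Cyp27a1 41.8 ± 15.9 and Cyp7b1 39.5 ± 14.8. Every pair of neighbours in this order overlapped in range. Within libraries, Baat was above Cyp7a1 in 6 of 6, whereas Akr1d1 was above Baat in 4 of 6, so that the first 2 places were not separated. At Amacr, Cyp8b1, Hsd3b7, Cyp27a1 and Cyp7b1 a region with fewer reads was higher per kb, at 58.8, 67.2, 51.0, 64.7 and 44.3. The order of these genes therefore depends on how the region is chosen.

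In the classic pathway, Cyp7a1 encodes the rate-limiting enzyme of bile acid synthesis. Its promoter region (chr4:6275495-6275975, 104 bp upstream of the start) had 14.0, 41.9 and 21.6 normalized reads in WT replicates 1, 2 and 3, and 20.9, 41.7 and 23.6 in AMPKCA replicates 1, 2 and 3. Batch 2 was highest in both genotypes and the genotypes overlapped fully, with a log2 fold change, AMPKCA over WT on the log2(value + 1.80) scale, of 0.21 ± 0.43 (SE, 95% interval -0.68 to 1.11). These values rest on 12 to 56 reads a library. The strongest Cyp7a1 region was not the promoter but an intergenic one 36.4 kb from the start, 26.1 kb past the gene's end (chr4:6238925-6239474), with 16.01, 58.4 and 48.5 in WT and 33.0, 64.0 and 30.6 in AMPKCA. WT replicate 1 was again the lowest library, as at all 6 Cyp7a1 regions. Here the within-batch log2 differences, AMPKCA minus WT, were 0.97, 0.13 and -0.64 in batches 1, 2 and 3, so the direction turned between batches. The log2 fold change was 0.15 ± 0.42, and -0.25 in batches 2 and 3 alone.

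Cyp8b1, the sterol hydroxylase whose activity sets the share of cholic acid, has a single exon, and the region over it (chr9:121915363-121916823, centred 212 bp past the start) was its strongest. It had 59.4, 83.9 and 66.5 normalized reads in WT and 79.7, 83.4 and 57.0 in AMPKCA, the genotypes overlapping. Its log2 fold change was 0.06 ± 0.29 (95% interval -0.53 to 0.66). This is the region that covers the promoter with the CAAAGTCCA motif shown above. A chain of 5 further regions lay 4.2 to 10.1 kb upstream. In 1 of them, 9.1 kb upstream (chr9:121925147-121925574), the groups did not overlap, at 10.7, 8.99 and 5.39 in WT and 12.9, 16.5 and 20.8 in AMPKCA. That region is weak, with 3 to 17 reads a library, and its log2 fold change of 0.88 ± 0.50 had an unadjusted limma p of 0.0879, or 0.0525 with the batch as a block.

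Among the genes of the alternative pathway, Cyp27a1 encodes the mitochondrial sterol hydroxylase that oxidizes the side chain. Its strongest region, in intron 1 (chr1:74721226-74722176, 8.1 kb past the start), had 20.01, 59.2 and 44.9 in WT and 30.6, 53.4 and 30.6 in AMPKCA. Its log2 fold change was -0.03 ± 0.40 (95% interval -0.85 to 0.78), and batch 1 differed in sign from batches 2 and 3, at 0.57 against -0.14 and -0.53. In exon 1 (chr1:74713536-74713882) the values were 21.3, 15.7 and 14.4 in WT and 12.1, 7.76 and 20.8 in AMPKCA, which overlapped.

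Cyp7b1, the oxysterol hydroxylase that follows CYP27A1, was bound over a wide span, from 55.5 kb upstream to 83.1 kb inside its long gene. Its 4 upstream regions all had a positive log2 fold change, from 0.31 to 0.70, and 3 of the 4 were also positive in batches 2 and 3 alone. WT replicate 1 was the lowest library at all 4. The strongest of them (chr3:18295668-18296362, 52.7 kb upstream) had 15.3, 36.7 and 21.6 in WT and 20.1, 41.7 and 29.2 in AMPKCA. AMPKCA was above WT within every batch there, by 0.35, 0.18 and 0.41, yet the groups overlapped because batches differed more than genotypes, and the log2 fold change was 0.31 ± 0.42. At a region 7.9 kb upstream (chr3:18251040-18251408) the groups did not overlap, with 8.005, 14.2 and 16.2 in WT and 18.5, 20.4 and 20.8 in AMPKCA (log2 fold change 0.62 ± 0.45). Exon 1 (chr3:18242880-18243570) went the other way in all 3 batches, with 27.3, 12.7 and 28.8 in WT and 11.3, 11.6 and 15.3 in AMPKCA. Its log2 fold change of -0.70 ± 0.45 was the lowest among the 63 regions, with an unadjusted limma p of 0.135, or 0.0836 with the block.

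For the enzymes that reshape the sterol nucleus, Hsd3b7 encodes the dehydrogenase and isomerase that acts after ring hydroxylation. Its strongest region spans the start (chr7:127800322-127801161, annotated in the table as the end of the neighbouring gene Setd1a) and covers the promoter shown above. WT had 50.03, 44.9 and 41.3 normalized reads and AMPKCA 37.8, 15.5 and 40.3, and it was the only member region where AMPKCA lay below WT without overlap. The separation was narrow, since only AMPKCA replicate 2 stood far below the others. The log2 fold change was -0.62 ± 0.38, with within-batch differences of -0.39, -1.43 and -0.04. With the block the unadjusted limma p was 0.0482 and the adjusted p 0.683, and without batch 2 the log2 fold change was -0.21.

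Akr1d1, the reductase that gives the sterol nucleus its bent shape, held the strongest HNF4a region of the set. It lies in intron 3 (chr6:37539764-37540780, 10.1 kb past the start) and ranked at the 99.8th percentile of all regions. WT had 100.1, 246 and 162 normalized reads and AMPKCA 90.9, 228 and 179. The 2 libraries of a batch lay close together, and batches 1 and 2 differed by more than either genotype pair. The log2 fold change was -0.03 ± 0.31 (95% interval -0.67 to 0.61), or a 95% interval of -0.42 to 0.35 with the block. The region nearest the start (chr6:37532061-37532421, 2.1 kb inside intron 1) was weaker, with 11.3, 23.2 and 25.2 in WT and 19.3, 29.1 and 18.1 in AMPKCA. A further 9 regions lay 62.5 to 140.6 kb from the start, all downstream of the gene, with means of 11.1 to 51.9. All 9 had a positive log2 fold change, from 0.14 to 0.75, and in 7 of them WT replicate 1 was the lowest library. In batches 2 and 3 alone 5 of the 9 were positive. In 1 of them (chr6:37601099-37601423) the groups did not overlap, at 8.005, 8.24 and 7.19 in WT and 12.1, 14.6 and 16.7 in AMPKCA, on 4 to 15 reads a library.

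Amacr, the racemase that prepares the side chain for peroxisomal oxidation, had its strongest region at the promoter (chr15:10981195-10982169). WT had 74.7, 58.4 and 32.4 and AMPKCA 37.0, 54.3 and 36.1. WT replicate 1 was the highest library, the reverse of its place at Cyp7a1 and Baat, and the log2 fold change of -0.31 ± 0.35 became 0.02 in batches 2 and 3 alone. The promoter share of reads was also highest in WT replicate 1, and its part in this value was not tested.

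Acox2, the peroxisomal oxidase of branched side chains, had the steadiest region of the set at its promoter (chr14:8258809-8259864, the region over the sequence shown above). WT had 64.7, 85.4 and 73.7 and AMPKCA 66.0, 80.5 and 73.6. Within each batch the genotypes differed by at most 0.08 in log2, and the log2 fold change was -0.02 ± 0.27 (95% interval -0.59 to 0.55). A weak region 24.8 kb upstream (chr14:8283640-8284053) had the highest log2 fold change of the 63, at 1.02 ± 0.60, from 2.00, 6.74 and 14.4 in WT to 8.85, 20.4 and 16.7 in AMPKCA. The groups overlapped, the values rest on 3 to 21 reads a library, and with the block the unadjusted limma p was 0.0407 and the adjusted p 0.672.

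Baat encodes the enzyme that conjugates bile acids. Its strongest region was again not at the start but 3.5 kb past the gene's end, 20.9 kb from the start (chr4:49485440-49485918), and ranked at the 99.7th percentile of all regions per kilobase. WT had 34.7, 78.6 and 46.7 normalized reads and AMPKCA 80.5, 66.0 and 95.8. AMPKCA was higher in batches 1 and 3, by 1.17 and 1.01, and lower in batch 2, by -0.25, so the groups overlapped. The log2 fold change of 0.64 ± 0.32 (95% interval -0.02 to 1.31) had the smallest p of the 63 regions, at an unadjusted limma p of 0.0552 without and 0.0137 with the block (adjusted p 1.00 and 0.556). Leaving out a batch in turn gave 0.38, 1.09 and 0.46. At the Baat promoter (chr4:49506087-49506860) WT had 18.7, 56.9 and 23.4 and AMPKCA 32.2, 47.5 and 29.2, a log2 fold change of 0.26 ± 0.41.

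**Figure D2:**
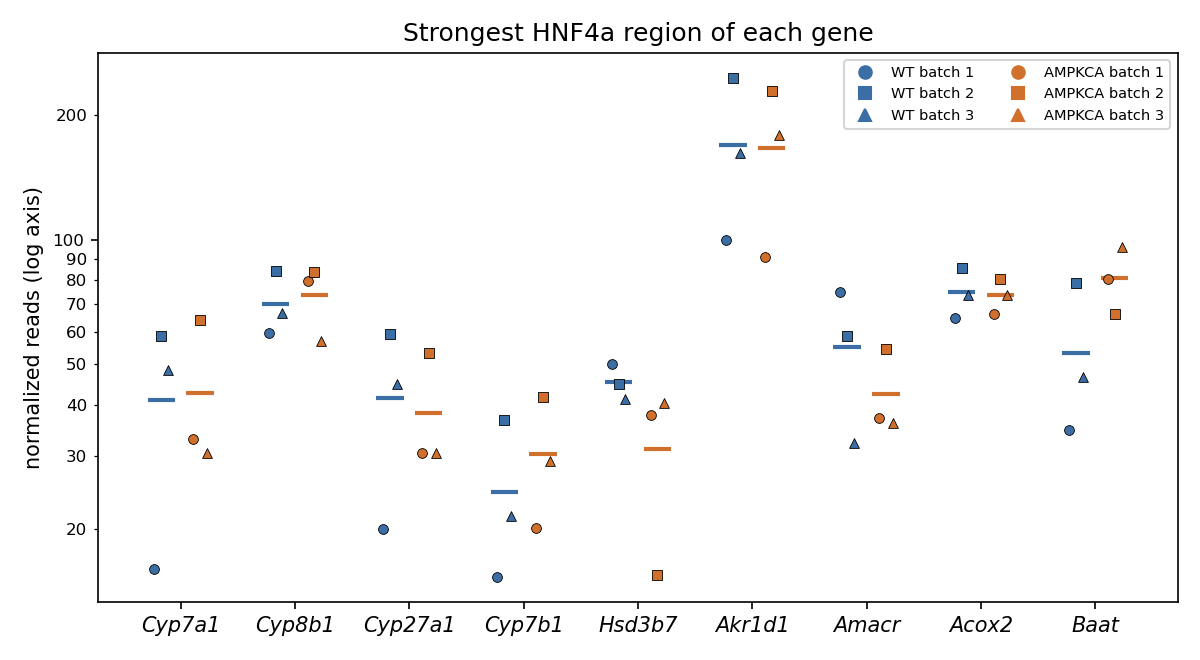
Normalized reads (y axis, logarithmic) at the strongest HNF4a region of each of the 9 genes, with 1 point per library, shape for batch and colour for genotype; bars are group means of 3 libraries. The genotypes overlap at every gene except Hsd3b7, and batch 2 points lie above those of batch 1 in both genotypes at Akr1d1, Cyp7a1, Cyp8b1, Cyp27a1, Cyp7b1 and Acox2.

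Across the 63 regions, no difference between genotypes passed the threshold. By limma, adjusted over all 39704 regions, 0 members were called without the block (0% of all regions called) and 0 with it (0.0579% of all regions called). An unadjusted p under 0.05 was reached by 0 members without the block, against 2.46% of all regions, and by 3 with it (4.76%, against 7.27% of all regions), the Baat region downstream and the Acox2 region upstream, higher in AMPKCA (background 4.11%), and the Hsd3b7 start region, lower (background 3.16%). EdgeR called 0 without and 0 with the block (background 0% and 0.063%), with 0 and 2 members at an unadjusted p under 0.05 (background 2.11% and 6.56%). DESeq2 called 0 members, as it called 0 of all 39704 regions. At an unadjusted p under 0.05 it had 0 members, against 599 of all 39704 regions. Groups that did not overlap were found at 3 regions higher in AMPKCA (4.76%, background 4.64%) and 1 lower (1.59%, background 3.27%), all 4 named above. AMPKCA was above WT in all 3 batches at 13 regions (20.6%, background 13.5%) and below it at 4 (6.35%, background 14.6%). Standard errors of single member regions ran from 0.27 to 0.73 in log2 without the block. An unadjusted p under 0.05 in the authors' deposited table was found for 6 of the 63 regions (9.52%, background 12.4%).

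Summed over all regions of a gene, HNF4a signal did not pass the test at any of the 9 genes. Akr1d1 had 243, 575 and 466 summed normalized reads in WT and 361, 547 and 450.1 in AMPKCA, a log2 fold change of 0.15 ± 0.26. Cyp7a1 had 76.7, 192 and 174 in WT and 123, 205 and 118 in AMPKCA (0.07 ± 0.31). Neither gene's groups separated, and WT replicate 1 was the lowest library at both. Baat had 82.0, 220.2 and 151.0 in WT and 166, 197 and 197 in AMPKCA, the highest log2 fold change of the 9 at 0.41 ± 0.28, with an unadjusted limma p of 0.0216 with the block (adjusted p 0.576). Without batch 1 the Baat value was 0.11. Hsd3b7 was the lowest, with 99.4, 92.1 and 75.5 in WT and 85.3, 71.8 and 76.4 in AMPKCA (-0.18 ± 0.23). The other 5 lay between -0.05 at Cyp27a1 and 0.18 at Cyp7b1. By limma over 13644 genes 0 of 9 members were called without or with the block (0% and 0.066% of all genes called). Unadjusted, 0 passed without the block (background 1.8%) and 1, Baat, with it (background 7.73%). EdgeR called 0 in either fit (0% and 0.0147% of all genes), with 0 and 1 unadjusted (background 1.8% and 6.46%). DESeq2 also called 0 of the 9, and its share over all genes is not given here. The groups separated at 0 of the 9 genes, against 3.31% of all genes higher and 4.17% lower in AMPKCA. All 3 batches shared a sign at 0 of the 9, against 10.6% of all genes higher and 18.3% lower.

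**Figure D3:**
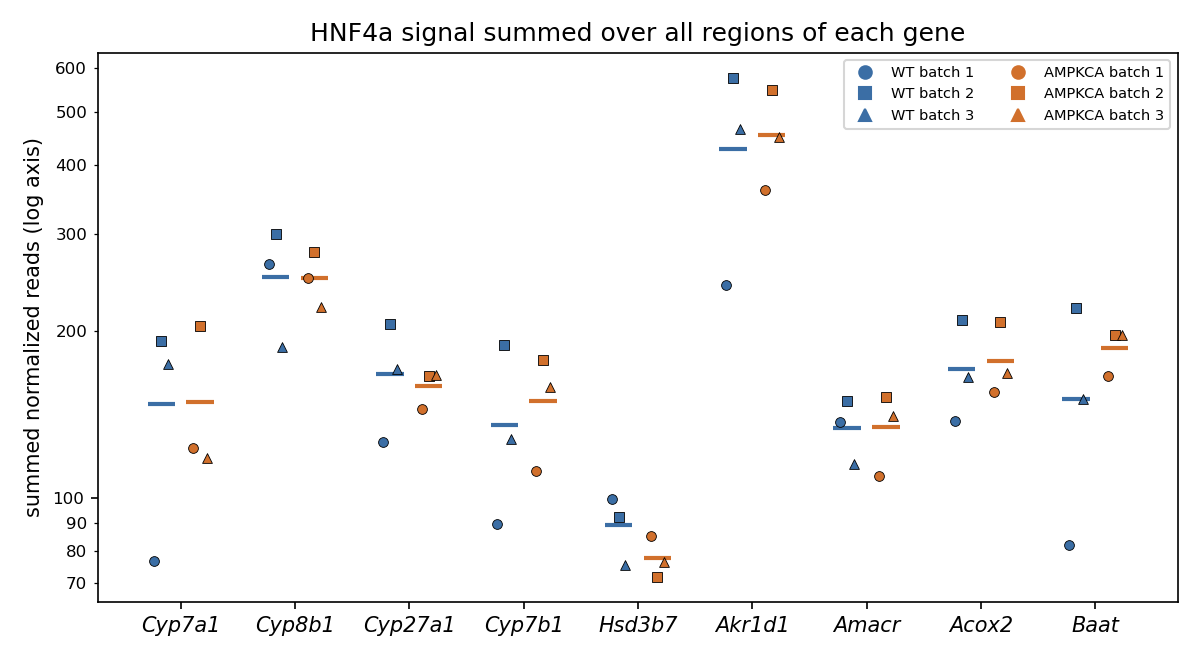
HNF4a signal summed over all regions of each gene (y axis, normalized reads, logarithmic), 1 point per library, shape for batch and colour for genotype, with bars at the means of 3 libraries. The genotypes overlap at all 9 genes, and the WT batch 1 point is the lowest of 6 at Akr1d1, Cyp7a1, Cyp27a1, Cyp7b1, Acox2 and Baat.

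At these regions libraries of different batches lay further apart than the genotypes of a batch. The median absolute log2 difference was 0.41 between the genotypes of a batch and 0.53 between libraries of the same genotype in different batches, against 0.48 and 0.54 over all regions. WT replicate 1 was the lowest of the 6 libraries at 39 of the 63 regions (61.9%), where it was lowest at 30.8% of all regions. Of the intergenic members it was lowest at 23 of 29 (79.3%, against 40.9% of all intergenic regions). At promoters it was lowest at 3 of 5 members, those of Cyp7a1, Acox2 and Baat, against 7.58% of all promoter regions. Batch 2 held the highest library at 39 member regions, also 61.9%, against 34.3% of all regions. AMPKCA exceeded WT at 49 of the 63 regions in batch 1 (77.8%, against 48.4% of all regions), with a median log2 difference of 0.42. In batches 2 and 3 it did so at 27 and 32 regions (42.9% and 50.8%, against 48.8% and 50.1%), with medians of -0.06 and 0.08.

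Over the 3 batches 39 of 63 members had a positive log2 fold change (61.9%, median 0.16), against 50.6% of all regions (median 0.006). Without batch 1 the count was 31 of 63 (49.2%, median -0.03), against 49.3% of all regions. Intergenic members were positive at 23 of 29 with all batches (79.3%, against 58.5% of all intergenic regions) and at 14 of 29 without batch 1 (48.3%, against 49.8%). The part of WT replicate 1, with its higher promoter share of reads and lower members' share, in these counts was not tested.

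**Figure D4:**
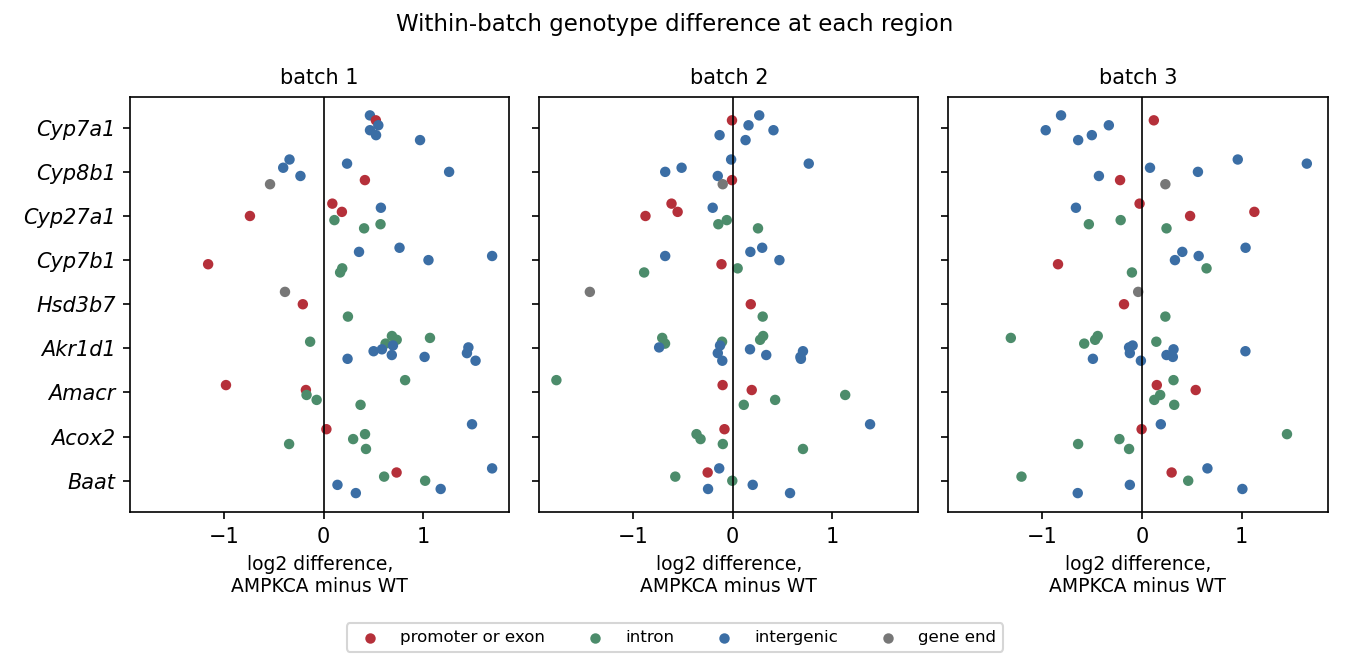
Log2 difference of normalized reads, AMPKCA minus WT, at each of the 63 regions within batches 1, 2 and 3 (x axis), grouped by gene and coloured by annotation. In batch 1, 49 points lie right of 0, including all 6 of Cyp7a1 and all 7 of Baat, while batches 2 and 3 have 27 and 32.

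No region of the other pathway genes passed the threshold either. Of 12 further synthesis genes 9 had regions, 53 in all, of which limma called 0 without and 0 with the block, with 1 and 5 regions at an unadjusted p under 0.05 (1.89% and 9.43%, against 2.46% and 7.27% of all regions), and edgeR called 0 in either fit. The most strongly bound were Slc27a5, the bile acid CoA ligase of the liver, and Ch25h, a cholesterol hydroxylase. Slc27a5 had 99.03 ± 18.0 in WT and 86.9 ± 11.2 in AMPKCA in its intron 2 (chr7:12995469-12996558, mean ± SD, n = 3 each), and Ch25h had 90.4 ± 15.7 and 97.5 ± 22.3 at a region in intron 8 of Lipa. Of 12 regulators of bile acid synthesis 10 had regions, 98 in all, again with 0 called by limma without or with the block and 0 by edgeR, and with 3 and 7 unadjusted (3.06% and 7.14%, against the same background). Of those 7 with the block, 1 was higher and 6 were lower in AMPKCA. For the further synthesis genes 4 of the 5 were higher and 1 was lower. Over all regions 4.11% were higher and 3.16% lower at that threshold. Prox1, a repressor that acts with HNF4a, had 221 ± 40.6 in WT and 208 ± 37.7 in AMPKCA at its most strongly bound region. The median log2 fold change was 0.10 for the further synthesis genes and -0.08 for the regulators, beside 0.16 for the 63 member regions.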

How the data were processed

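HNF4a ChIP-seq used antibody ab41898 on liver, per the labels, which name 2 library kits without assigning them. Per the submitters' processing notes, BWA and SAMtools, the peak callers SICER and MACS2, HOMER, Picard, deepTools, FastQC and Trim Galore are named, with the builds GRCm38 and mm10 and no versions or roles. The labels do not say how peaks were selected. The deposited signal is a read number per region divided by 1 factor per library, not by length: dividing by each library's lowest step gave whole reads for 100% of values (tolerance 1e-09). The deposited mean ratio, its log2 and an unadjusted p-value per region come from the authors, with no adjustment. Such scaling removes any change shared by most regions. No input was analysed here.

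Log2(value + 1.80) was fitted by limma 3.58.1 (trend, robust) in R 4.3.3 with Benjamini-Hochberg adjustment over all regions, or over all genes for sums, at 0.05. The pseudocount understates changes of weak regions. Counts of recovered reads were tested by edgeR 4.0.16 and DESeq2 1.42.0. The limma and edgeR fits were tried on simulated data with large changes in the stronger regions only and no batch differences. That trial does not cover weak regions, small changes or batches like those here. Per the labels, a batch pairs a library of each genotype, and same-batch deviations correlated at r of 0.53, 0.49 and 0.05, and the blocked fit stands beside the main one. P-values measure the spread between these libraries, which may be partly technical. Every member was named with its strongest and nearest region and any with an unadjusted p under 0.05 in either fit, and of the 2 other pathway lists the 2 most strongly bound genes. Of these, 1 regulator is not reported here. Regions whose groups did not overlap, the Akr1d1 cluster downstream and the upstream Cyp7b1 regions as a group were named after their values were seen. The Cyp27a1 promoter region was also added after its values were seen. The members and lists were chosen with earlier results of these data known.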

Additional observations from a re-analysis of the deposited data

How the results depend on the processing

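No alternative called a member. For the 63 regions and the 9 gene sums the count was 0 with the replicate block, by limma without a trend and with the block, with a pseudocount 5 times larger, with low values left out, scaled by library sums or DESeq2 size factors (both chosen after seeing the data), by edgeR or DESeq2, and with 1 library or 1 batch left out (range 0 to 0). Over all regions the count went from 0 to 23 with the replicate block and 25 by edgeR with the replicate block, but was 0 by limma without a trend. It was 12, 2 and 7 with the replicate block and batch 1, 2 or 3 left out, and 0 to 16 with 1 library left out, the 16 being without WT replicate 1. The batch block changed no call of a member. For single regions, TMM factors of the recovered reads gave back the deposited scale, so TMM was no separate test there. For gene sums, where its factors differed, it also called 0 members.

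At the strongest regions, small fold changes turned sign when 1 library was left out. Values in log2 ran from -0.39 to 0.49 at Cyp7a1, -0.045 to 0.23 at Cyp8b1, -0.47 to 0.28 at Cyp27a1, -0.36 to 0.35 at Akr1d1 and -0.11 to 0.081 at Acox2. The sign held at Cyp7b1 (0.04 to 0.63), Hsd3b7 (-0.85 to -0.21), Amacr (-0.64 to -0.06) and Baat (0.39 to 0.96). With the replicate block, leaving out batch 1 gave -0.25 at Cyp7a1, -0.11 at Cyp8b1, 0.020 at Akr1d1 and 0.025 at Amacr. Leaving out batch 2 gave 0.020 at Cyp27a1, 0.0054 at Akr1d1 and 0.013 at Acox2, and leaving out batch 3 gave 0.21 at Cyp27a1. Scaling by library sums gave 0.019 at Cyp27a1, 0.025 at Akr1d1 and 0.038 at Acox2, where the deposited scale gave small negative values. On that scale 45 of 63 members were positive, in place of 39. The median log2 fold change over all regions moved as well, from 0.006 to 0.058, and that of the members from 0.16 to 0.21. The causes were not tested. Standard errors of up to 0.73 in log2 limit what single regions can show, and weak regions rest on few reads.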
